A study of Mus musculus with 4 samples.

Results

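Aldehyde dehydrogenases are enzymes that oxidise aldehydes to carboxylic acids, with members that differ in substrate and in cell compartment. Retinaldehyde dehydrogenases of the Aldh1a class make retinoic acid, the ligand of nuclear receptors that act on epithelial growth and differentiation, and high aldehyde dehydrogenase activity is widely used to mark stem and progenitor cells. Other members serve proline, lysine, folate and fatty aldehyde metabolism.

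The 10 genes described here were the rows whose symbol was Aldh1a1, Aldh1a3, Aldh1a7, Aldh1l2, Aldh2, Aldh3a1, Aldh3a2, Aldh3b1, Aldh7a1 or Aldh18a1, out of 24346 gene symbols, and all 10 were found. Another 11 aldehyde dehydrogenase genes were listed and are given for comparison. RNA came from hair follicle stem cells (HFSCs), which were sorted from the dorsal skin of adult C3H/HeN mice by CD34 and alpha-6 integrin and then passaged in the serum-free medium M-CnT. The groups were HFSCs after 10 passages (10p-HFSCs, n = 2 libraries) and HFSCs after 48 passages (48p-HFSCs, n = 2 libraries), and the comparison asks how these cells differ after long culture. Both groups share strain, medium and sorting, and the labels name no transgene or treatment. The labels do not say whether replicates were separate cultures, so p-values measure the spread between these libraries, which may be technical.

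Values are FPKM, fragments scaled by transcript length and by the mapped fragments of the library, so levels of different genes are compared per length. Depth relative to replicate 1 of 10p-HFSCs ranged from 46.7% in replicate 2 of 48p-HFSCs to 82.9% in replicate 1 of 48p-HFSCs, which makes low values of replicate 2 of 48p-HFSCs the least precise. The summed FPKM of that library was 1414953 against 581516 to 719012 in the others. The basal keratinocyte marker Krt5 was at 1805 and 1473 FPKM in 10p-HFSCs and at 8156 and 5120 FPKM in 48p-HFSCs. Krt14 was at 1423 and 1217 FPKM in 10p-HFSCs and at 3896 and 2439 FPKM in 48p-HFSCs. The groups did not overlap for either gene, but neither was called. The sorting marker Cd34 did not pass 0.234 FPKM and the bulge markers Lhx2 and Lgr5 did not pass 0.0303 in any library. Other markers of follicle stem cells were present, with Krt15 at 136 and 82.6 FPKM in 10p-HFSCs and at 425 and 18.8 FPKM in 48p-HFSCs, where the replicates differed by a factor of 22.6, and Sox9 at 45.6 and 44.2 FPKM in 10p-HFSCs and at 20.2 and 8.31 FPKM in 48p-HFSCs. Of 14 mesenchymal markers 2 of 4 tested were called lower, Vim from 284 and 327 to 2.35 and 3.08 FPKM and Col1a2 from 67.6 and 59.3 FPKM to being listed at 0. Their summed FPKM was 874 and 883 in 10p-HFSCs against 649 and 771 in 48p-HFSCs, most of it from Sparc, which was at 512 and 490 FPKM in 10p-HFSCs and at 644 and 765 FPKM in 48p-HFSCs, and Dcn, Lum and Thy1 were listed at 0 throughout. Of 10 differentiated keratinocyte markers 9 were listed (not Flg), and 3 of 5 tested were called higher (Sprr1b, Tgm1 and Sprr1a). Their summed FPKM was 25.5 and 24.6 in 10p-HFSCs against 316 and 275 in 48p-HFSCs. Most of it came from Sprr1b, at 15.1 and 12.8 FPKM in 10p-HFSCs and at 208 and 242 FPKM in 48p-HFSCs. Of the tested markers not called, Ivl was higher in both 48p-HFSC libraries and Krtdap overlapped. Tgm3, not tested, was lower in both, and Krt1, Krt10 and Lor were listed at 0 throughout. Of 8 leukocyte and endothelial markers 1 of 2 tested was called higher (Cd68), with summed FPKM of 9.70 and 9.08 in 10p-HFSCs against 54.3 and 78.9 in 48p-HFSCs, and Cd3e, Tyrobp and Cd207 were listed at 0 throughout. Most of that sum came from Cd68, at 7.30 and 6.81 FPKM in 10p-HFSCs and at 53.2 and 78.7 FPKM in 48p-HFSCs. Pecam1, the other tested marker, went the other way, from 2.38 and 2.24 to 1.01 and 0.172 FPKM, and was not called. Ptprc did not pass 0.0711 FPKM in any library. Of 10 sebaceous and sweat gland markers 2 of 5 tested were called lower (Aqp5 and Scd1), and their summed FPKM was 340 and 320 in 10p-HFSCs against 147 and 151 in 48p-HFSCs. Of 14 keratinocyte markers 11 were tested, of which Itga6 and Itgb4 were called higher and Sox9 lower. Of 7 melanocyte markers only Tyr was tested and it was not called, with Dct and Sox10 listed at 0 throughout. Over all genes tested, 10.8% were called higher and 9.15% lower, by the rule given below. The part of these markers in the results below was not tested. In these bulk libraries fewer cells of a type and less RNA per cell cannot be told apart.

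Groups were compared with limma on log2(FPKM + 1) over the 11018 genes that reached an FPKM of 1 in 2 or more libraries. Calls required a Benjamini-Hochberg adjusted p-value under 0.05 and a difference of at least 1 on this scale, which understates the change of low genes. Of the 10 genes 7 were tested, and Aldh1a3, Aldh2 and Aldh3a1 were too low. Aldh1a1, Aldh1a7 and Aldh7a1 were called higher in 48p-HFSCs, and none was called lower. Over all genes tested, 10.8% were called higher and 9.15% lower. These 3 genes passed the filter through the 48p-HFSC libraries alone, so their number is a description and not evidence about the family. Among the called genes of the related lists below, Rbp2, Akr1c12, Akr1c13 and Cers3 likewise passed because of their 48p-HFSC libraries, and Rdh5, Cyp26b1, Glul and Aldh9a1 because of their 10p-HFSC libraries, so that counts and medians of those lists are partly set by the filter. The same holds for the counts of the marker lists above. There Tgm1 and Sprr1a passed because of their 48p-HFSC libraries, and Col1a2 and Aqp5 because of their 10p-HFSC libraries. No member was lower at an unadjusted p under 0.05 by limma, and 4 were higher, the fourth being Aldh18a1. For 5 of the 7 genes the 48p-HFSC libraries were both above the 10p-HFSC libraries, and for 1 both below, against 31.7% and 34.3% of all genes tested, and the groups overlapped for Aldh3b1. For Aldh1a1, Aldh1a7 and Aldh7a1 among these 5 the filter fixed this order in advance. Neither this count nor the 4 at an unadjusted p by limma is therefore evidence about the family. The plot of each library's level shows all 10 genes together.

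**Figure D1:**
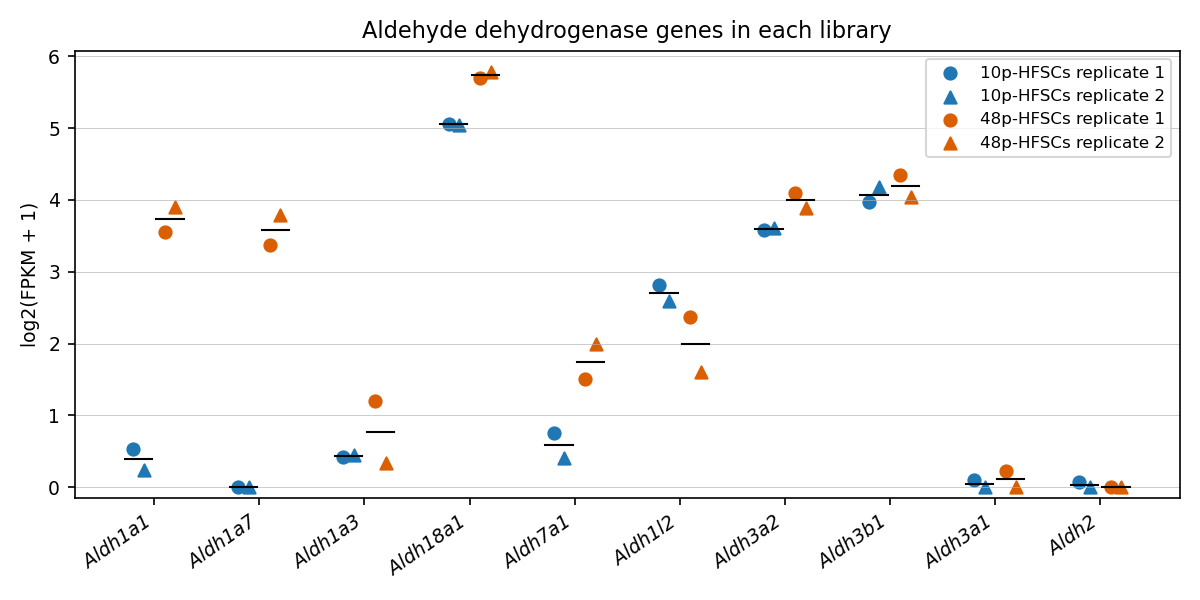
Level of each of the 10 genes as log2(FPKM + 1) in every library, with 10p-HFSCs in blue and 48p-HFSCs in orange, replicate 1 as circles, replicate 2 as triangles and the group mean as a black line. Aldh1a1 and Aldh1a7 lie near the bottom in 10p-HFSCs and above 3 in both 48p-HFSC libraries, while Aldh18a1 is the highest of the 10 genes in every library.

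Aldh1a1, the main cytosolic retinaldehyde dehydrogenase and a stem cell marker in many tissues, was at 0.454 and 0.187 FPKM in 10p-HFSCs and at 10.8 and 13.9 FPKM in 48p-HFSCs. Both 48p-HFSC libraries lay far above both 10p-HFSC libraries, and mean FPKM was 38.5 times as high (0.320 ± 0.189 against 12.4 ± 2.2, SD, n = 2 each), with single libraries between 23.8 and 74.5 times apart. The log2 difference was 3.34 (SE 0.28, limma adjusted p = 0.00147). Aldh1a7, a rodent duplicate of Aldh1a1, was listed at 0 in each 10p-HFSC library and reached 9.37 and 12.9 FPKM in 48p-HFSCs. The fitted log2 difference was 3.59 (SE 0.27, limma adjusted p = 0.00121), which depends on the pseudocount since one group is at 0. Without replicate 1 or replicate 2 of 10p-HFSCs neither gene was called (limma adjusted p between 0.0613 and 0.0694), with differences of 3.19 to 3.59. In those fits the spread rested on the 48p-HFSC pair alone, and only 35 or 36 genes of all tested were called higher.

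The order of the genes within a library does not depend on scaling. Aldh1a1 exceeded 54.6% and 50.6% of all listed genes in 10p-HFSCs, many of which were at 0, and 76.2% and 79.6% in 48p-HFSCs. Aldh1a1 and Aldh1a7 stood close to each other in 48p-HFSCs, with a ratio of 1.15 in replicate 1 and 1.08 in replicate 2. That difference between the genes was smaller than the spread between the replicates of either one.

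The position and sequence of this gene pair bear on how far their values are separate. In GRCm38, the assembly also called mm10, Aldh1a1 lies on the plus strand at chr19:20492715-20643465 and Aldh1a7 on the minus strand at chr19:20692953-20727562 (GENCODE M21). Their 3' ends face each other across 49487 bases. Their coding sequences are 1503 bases each and 91.7% identical. Among the 1405 aligned windows of 1 read length, none was identical between the genes, the median window held 8 differences, and 164 windows (11.7%) held 2 or fewer. No run of that length from any annotated transcript of either gene occurred in another gene. How the authors treated reads that map to several places is not given in the sources used here, so part of the signal of one gene may have been counted for the other.

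The following stretches show the extremes among the 330 windows that lie within 1 exon of both genes. Capitals mark the bases that differ, and each is read 5′ to 3′ on the strand of its gene from GENCODE M21 on GRCm38. Coding bases 199 to 299 are the most alike, with 1 difference, and lie in exon 6 of the Aldh1a1 transcript at chr19:20617907-20618007 (plus strand) and in exon 3 of the Aldh1a7 transcript at chr19:20722291-20722391 (minus strand). Coding bases 878 to 978 are the least alike, with 21 differences, and lie in exon 12 of Aldh1a1 at chr19:20630693-20630793 and in exon 9 of Aldh1a7 at chr19:20708207-20708307.
Aldh1a1 bases 199 to 299: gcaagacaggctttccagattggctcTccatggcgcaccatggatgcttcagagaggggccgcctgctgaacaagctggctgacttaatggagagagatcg
Aldh1a7 bases 199 to 299: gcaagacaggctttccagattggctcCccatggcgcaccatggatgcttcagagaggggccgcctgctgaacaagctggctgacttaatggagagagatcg
Aldh1a1 bases 878 to 978: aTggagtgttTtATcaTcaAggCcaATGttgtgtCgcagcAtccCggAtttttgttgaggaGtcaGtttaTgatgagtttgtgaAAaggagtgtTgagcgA
Aldh1a7 bases 878 to 978: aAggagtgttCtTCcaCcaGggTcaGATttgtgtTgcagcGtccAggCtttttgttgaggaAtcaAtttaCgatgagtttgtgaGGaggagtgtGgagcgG

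**Figure D2:**
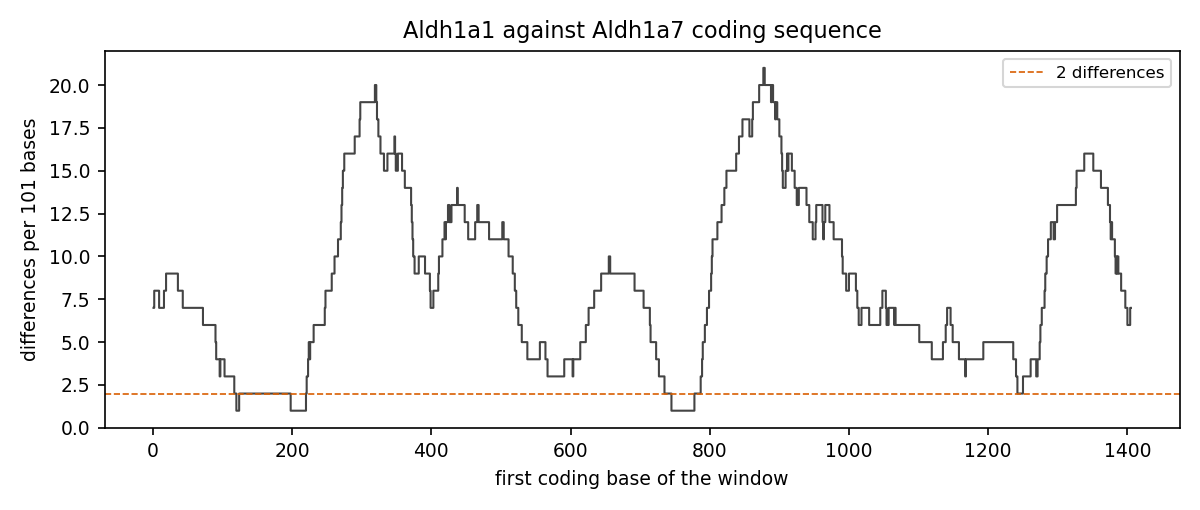
Differences between the aligned Aldh1a1 and Aldh1a7 coding sequences in each window of 1 read length, by the first coding base of the window, with a dashed line at 2 differences. Stretches at 1 or 2 differences alternate with stretches that reach 21 differences.

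Since the pair was high together in 48p-HFSCs, its promoters are shown as listed by RefSeq on GRCm38.p6, as windows of 300 bases of which the last 50 follow a start site. Such windows were listed for 5 of the 10 genes, with 2 starts for Aldh1a1. The first Aldh1a1 window is chr19:20492333-20492632 and the second chr19:20601718-20602017, both on the plus strand, and the Aldh1a7 window is chr19:20727507-20727806 on the minus strand. Each is printed 5′ to 3′ in the direction of its gene. Capitals mark matches on either strand to the 6 motifs searched. The TATA box was searched as TATAAA and the CCAAT motif by its letters. The GC box was searched as GGGCGG. Only a part of the site bound by retinoic acid receptors was searched, as AGGTCA. The AP-1 site was searched as TGANTCA. The core of the antioxidant response element was searched as TGACNNNGC. No match overlapped another in these 3 windows.
Aldh1a1 first start: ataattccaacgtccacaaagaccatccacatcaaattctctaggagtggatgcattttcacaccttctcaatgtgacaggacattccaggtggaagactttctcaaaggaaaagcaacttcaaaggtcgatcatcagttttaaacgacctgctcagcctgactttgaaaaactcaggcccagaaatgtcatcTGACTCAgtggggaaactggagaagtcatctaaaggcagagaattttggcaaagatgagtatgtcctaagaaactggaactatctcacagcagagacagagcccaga
Aldh1a1 second start: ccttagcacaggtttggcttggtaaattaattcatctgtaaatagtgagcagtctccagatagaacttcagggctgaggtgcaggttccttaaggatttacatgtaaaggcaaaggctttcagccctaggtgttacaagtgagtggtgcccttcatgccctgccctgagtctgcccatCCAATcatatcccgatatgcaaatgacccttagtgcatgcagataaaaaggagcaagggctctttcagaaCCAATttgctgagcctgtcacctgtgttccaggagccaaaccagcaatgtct
Aldh1a7 start: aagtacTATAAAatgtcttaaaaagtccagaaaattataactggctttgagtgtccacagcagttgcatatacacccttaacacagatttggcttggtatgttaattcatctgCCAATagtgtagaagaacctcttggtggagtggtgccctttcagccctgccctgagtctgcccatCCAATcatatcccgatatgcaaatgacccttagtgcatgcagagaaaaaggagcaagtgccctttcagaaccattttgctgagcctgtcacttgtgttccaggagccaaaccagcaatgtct

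The second Aldh1a1 window and the Aldh1a7 window were equal at 142 of their last 150 bases (94.7%), and both held a CCAAT match at position -72. The first Aldh1a1 window was equal to the Aldh1a7 window at 44 of the last 150 bases (29.3%), and held an AP-1 match at -57. The second Aldh1a1 window held a further CCAAT match at -2, and the Aldh1a7 window one at -137 and TATAAA at -244. Of 32851 mouse promoter windows of this length, 37.4% held CCAAT, 13.6% TATAAA and 7.81% TGANTCA. The searched part of the retinoic acid receptor site (AGGTCA), the GC box and the antioxidant core had no match in these 3 windows. They were found in 16.3%, 35.7% and 12.4% of all windows. A full retinoic acid receptor site was not searched for, so its presence or absence was not tested. GC content was 43.3%, 47.0% and 44.0% in the order printed, below the median of 52.7%. One FPKM per gene does not show which start of Aldh1a1 was used.

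The genes on either side of the pair differed in pattern. Anxa1, which encodes an abundant calcium-dependent phospholipid-binding protein, was at 732 and 569 FPKM in 10p-HFSCs and at 593 and 975 FPKM in 48p-HFSCs, so its groups overlapped. Tmc1 was listed at 0 in every library. Zfand5, the next gene after Tmc1 among those looked up, was at 16.5 and 18.1 FPKM in 10p-HFSCs and at 23.2 and 68.9 FPKM in 48p-HFSCs. Both 48p-HFSC libraries were thus above the others, as for 31.7% of all genes tested, with the replicates far apart. Its nearest libraries, at 18.1 and 23.2 FPKM, were much closer than those of the pair. Of the other genes looked up, Rorb was listed at 0 in every library, and Trpm6 and Gda did not pass 0.0524 FPKM.

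Aldh1a3, another retinaldehyde dehydrogenase that is known from epithelia and their cancers, was at 0.336 and 0.363 FPKM in 10p-HFSCs and at 1.31 and 0.262 FPKM in 48p-HFSCs. Its groups overlapped, and only replicate 1 of 48p-HFSCs stood out, at 5.0 times the level of replicate 2. Aldh1a2, the retinaldehyde dehydrogenase of the embryonic mesoderm, was listed at 0 in every library. In 99 subunit and housekeeping genes, chosen by symbol pattern, only Copz2, Psma8 and Psmb8 were listed at 0 in any library. Their median was at least 148 FPKM in every library, so they cannot show whether zeros of low genes are reliable. Aldh1a1, Aldh1a2, Aldh1a3 and Aldh1a7 together summed to 0.791 and 0.550 FPKM in 10p-HFSCs and to 21.5 and 27.1 FPKM in 48p-HFSCs. Aldh1a7 made up 9.37 and 12.9 FPKM of the 48p-HFSC sums, and whether it acts on retinaldehyde was not tested. The joint sum was 0.745% and 0.523% of the summed FPKM of all 21 aldehyde dehydrogenase genes in 10p-HFSCs. In 48p-HFSCs it was 13.8% and 18.97%.

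Around the retinaldehyde dehydrogenases, 10 of 22 genes of retinoid supply and clearance were tested. Of these, 2 were called higher and 2 lower, against 10.8% and 9.15% of all genes tested. The median log2 difference of the 10 was -0.14 against -0.03 over all genes tested. Rbp2, a cellular retinol-binding protein, was at 0.416 and 1.31 FPKM in 10p-HFSCs and rose to 19.5 and 11.6 FPKM in 48p-HFSCs (log2 difference 3.15, SE 0.39, limma adjusted p = 0.00444). Dhrs3, which reduces retinaldehyde back to retinol, was at 2.26 and 2.86 FPKM in 10p-HFSCs and at 6.03 and 7.67 FPKM in 48p-HFSCs (log2 difference 1.14, limma adjusted p = 0.0396). Rdh5, a retinol dehydrogenase, was at 1.20 and 2.13 FPKM in 10p-HFSCs and at 0.279 and 0.297 FPKM in 48p-HFSCs (log2 difference -1.03, limma adjusted p = 0.0441). Of its windows of 1 read length 14.8% also occurred in Bloc1s1, so its values are uncertain. Cyp26b1, which breaks down retinoic acid, was at 2.12 and 2.06 FPKM in 10p-HFSCs and at 0.761 and 0.349 FPKM in 48p-HFSCs (log2 difference -1.0, limma adjusted p = 0.0415). In all 4 genes the 48p-HFSC libraries lay on one side of the 10p-HFSC libraries, but no call was made without replicate 1 or replicate 2 of 10p-HFSCs (limma adjusted p between 0.0763 and 0.411), Dhrs3, Rdh5 and Cyp26b1 were also not called without replicate 2 of 48p-HFSCs (differences of 0.99, -1.04 and -0.81), and Rdh5 was not called without replicate 1 of 48p-HFSCs (adjusted p = 0.0564). Without filter none of Dhrs3, Rdh5 and Cyp26b1 was called (adjusted p = 0.0934, 0.0592 and 0.0619), nor were Rdh5 and Cyp26b1 with a constant variance prior (0.0620 and 0.0563). Dhrs3 was also lost with a pseudocount of 0.1 (0.0512) and after rescaling to TPM (0.69, adjusted p = 0.521), Rdh5 after quantile normalization (-0.99), and Cyp26b1 after rescaling to TPM (adjusted p = 0.0825), with a filter on mean FPKM (0.0697), after median-of-ratios scaling (-0.99) and with the length and GC correction (-0.91).

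Of the 6 retinoic acid and retinoid X receptors 4 were tested and none was called by limma, and none had an unadjusted p under 0.05. Rxra, the most abundant, was at 51.5 and 52.8 FPKM in 10p-HFSCs and at 38.9 and 34.1 FPKM in 48p-HFSCs (log2 difference -0.51, SE 0.24, limma adjusted p = 0.188). Rarg, the main retinoic acid receptor of skin, was at 27.6 and 30.2 FPKM in 10p-HFSCs and at 39.6 and 35.9 FPKM in 48p-HFSCs (log2 difference 0.38, SE 0.24, limma adjusted p = 0.301), and its sign reversed after rescaling to TPM.

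Among alcohol dehydrogenases, aldo-keto reductases and other carbonyl-handling enzymes, which make or remove the same aldehydes, 10 of 16 were tested, 4 were called higher and none lower, against 10.8% and 9.15% of all genes tested, with a median log2 difference of 1.04 to which Akr1c12 and Akr1c13 contribute through the filter. None of them was lower at an unadjusted p under 0.05. Akr1c12 was at 0.143 FPKM and listed at 0 in 10p-HFSCs and at 30.2 and 48.9 FPKM in 48p-HFSCs (limma adjusted p = 0.000916). Akr1c13 was at 0.332 and 1.26 FPKM in 10p-HFSCs and at 39.1 and 38.7 FPKM in 48p-HFSCs (log2 difference 4.52, SE 0.34, limma adjusted p = 0.00116). These 2 reductases share 132 windows of 1 read length, 11.4% of those of Akr1c12 and 9.22% of those of Akr1c13, so their separate values are uncertain. Akr1b10, an aldo-keto reductase active on retinaldehyde and other carbonyls, was at 5.58 and 5.70 FPKM in 10p-HFSCs and at 25.3 and 23.99 FPKM in 48p-HFSCs (log2 difference 1.95, SE 0.25, limma adjusted p = 0.00505). Adh5, which oxidises the glutathione adduct of formaldehyde, was at 82.1 and 83.6 FPKM in 10p-HFSCs and at 180 and 259 FPKM in 48p-HFSCs (log2 difference 1.37, SE 0.32, limma adjusted p = 0.0321). After rescaling to TPM Akr1b10 (1.43, adjusted p = 0.176) and Adh5 (0.79, adjusted p = 0.139) were not called, and Adh5 was not called without filter (adjusted p = 0.0514). Without replicate 1 or replicate 2 of 10p-HFSCs Akr1b10 and Adh5 were not called either (limma adjusted p between 0.139 and 0.376).

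Aldh18a1 makes pyrroline-5-carboxylate from glutamate in mitochondria, the first step towards proline and ornithine. It was the highest of the 10 genes in every library, at 32.5 and 31.8 FPKM in 10p-HFSCs and at 51.0 and 54.2 FPKM in 48p-HFSCs. The libraries of each group were close together and the groups did not overlap, with means of 32.1 ± 0.441 and 52.6 ± 2.28 FPKM (SD, n = 2 each), 1.64 times as high in 48p-HFSCs. The log2 difference of 0.69 (SE 0.24, limma adjusted p = 0.0927) did not pass the test. It was 0.12 after rescaling to TPM, a step that moved the median log2 difference of all genes tested from -0.03 to -0.55 and the called genes from 1189 higher and 1008 lower (54.1% higher) to 620 higher and 820 lower (43.1% higher). With the length and GC correction the difference of Aldh18a1 was 0.75 (limma adjusted p = 0.0484, or 0.0451 with the replicate number as a block). There only the fold limit kept it from being called. The gene lies at chr19:40550257-40588463 on the minus strand.

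Of 10 listed genes in and around proline and ornithine synthesis 9 were tested, with a median log2 difference of 0.11. Of these, 1 was called higher and 1 lower, against 10.8% and 9.15% of all genes tested. The called genes, Glul and Odc1, make other products (glutamine and putrescine). Glul, glutamine synthetase, was at 3.72 and 2.81 FPKM in 10p-HFSCs and fell to 0.0226 and 0.0402 FPKM in 48p-HFSCs (log2 difference -2.04, SE 0.24, limma adjusted p = 0.00397). Without replicate 1 of 10p-HFSCs Glul was not called (adjusted p = 0.0562). Odc1, which turns ornithine into putrescine, was at 41.9 and 39.4 FPKM in 10p-HFSCs and rose to 97.5 and 194 FPKM in 48p-HFSCs (log2 difference 1.74, SE 0.38, limma adjusted p = 0.0285). Both 48p-HFSC libraries lay above the 10p-HFSC libraries, although they were far apart from each other, and Odc1 was not called without replicate 1 or replicate 2 of 10p-HFSCs (adjusted p = 0.307 and 0.287) or without filter (0.0634). Of its windows of 1 read length 9.90% also occurred in other annotated genes, so its values are uncertain.

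Aldh7a1, antiquitin, oxidises the semialdehyde that arises in lysine breakdown. It was at 0.686 and 0.330 FPKM in 10p-HFSCs and at 1.85 and 2.98 FPKM in 48p-HFSCs, so the groups did not overlap and mean FPKM was 4.75 times as high in 48p-HFSCs (0.508 ± 0.252 against 2.41 ± 0.796, SD, n = 2 each). The log2 difference was 1.17 (SE 0.29, limma adjusted p = 0.0383). This call was close to the threshold and was made under 7 of 15 alternative settings, of which dropping the fold limit could not lose it. It was lost without filter (adjusted p = 0.0692), with a filter on mean FPKM (0.0589), after rescaling to TPM (0.203), after quantile normalization (0.0712), with a constant variance prior (0.0511), and without replicate 1 or 2 of 10p-HFSCs (0.206 and 0.286) or replicate 2 of 48p-HFSCs (0.0570). On chromosome 18, at positions 56509687 to 56572951 of the minus strand, its exons overlap those of Phax on the other strand over 300 bases, 5.79% of its exon bases. Phax was at 18.8, 19.3, 17.9 and 28.3 FPKM in the same order of libraries, and the strand setting of the authors' quantification is not given in the sources used here, so reads of the 2 genes in the overlap may not be told apart.

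Only 1 of 6 other lysine breakdown genes was tested. Gcdh, glutaryl-CoA dehydrogenase, was at 7.75 and 7.69 FPKM in 10p-HFSCs and at 4.93 and 6.44 FPKM in 48p-HFSCs (log2 difference -0.39, SE 0.28, limma adjusted p = 0.342). Aass, which catalyses the first steps of the pathway, did not pass 0.691 FPKM in any library.

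Aldh1l2, the mitochondrial formyltetrahydrofolate dehydrogenase, was at 6.05 and 5.06 FPKM in 10p-HFSCs and at 4.18 and 2.05 FPKM in 48p-HFSCs. It was the only tested gene of the 10 with both 48p-HFSC libraries below both 10p-HFSC libraries, but the 48p-HFSC replicates differed by a factor of 2.04 (5.56 ± 0.699 against 3.11 ± 1.51 FPKM, SD, n = 2 each). The log2 difference of -0.72 (SE 0.35, limma adjusted p = 0.189) did not pass the test. It was called lower without replicate 1 of 48p-HFSCs (log2 difference -1.10, adjusted p = 0.0358) and was -0.34 without replicate 2. With 6027 bases it has the longest transcript of the 7 tested genes. In the third of tested genes with the longest transcripts, replicate 2 of 48p-HFSCs was 0.25 below replicate 1 at the median (log2 scale), against 0.77 for Aldh1l2. Its exons overlap those of D10Wsu102e on the other strand over 1056 bases (14.1% of its exon bases), a gene at 34.2, 33.8, 11.2 and 11.7 FPKM in the same order of libraries.

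All 14 other folate one-carbon genes were tested, with a median log2 difference of -0.61. None was called higher and 2 were called lower, against 10.8% and 9.15% of all genes tested. Shmt1, the cytosolic serine hydroxymethyltransferase, was at 27.4 and 17.2 FPKM in 10p-HFSCs and at 9.44 and 6.01 FPKM in 48p-HFSCs (log2 difference -1.41, SE 0.35, limma adjusted p = 0.0411). Tyms, thymidylate synthase, was at 20.1 and 23.6 FPKM in 10p-HFSCs and at 8.56 and 11.4 FPKM in 48p-HFSCs (log2 difference -1.06, SE 0.28, limma adjusted p = 0.0455). Neither was called without filter, after rescaling to TPM or without replicate 1 or replicate 2 of 10p-HFSCs (limma adjusted p between 0.0696 and 0.430). Tyms was also not called with a constant variance prior (adjusted p = 0.0527) or with the length and GC correction, with or without the replicate number as a block (-0.95 each). Shmt1 was also not called without replicate 2 of 48p-HFSCs (adjusted p = 0.126) and Tyms not without replicate 1 of 48p-HFSCs (adjusted p = 0.0544). Aldh1l1, the cytosolic counterpart of Aldh1l2, was at 2.21 and 1.87 FPKM in 10p-HFSCs and at 1.27 and 3.09 FPKM in 48p-HFSCs, where the replicates lay on either side of the 10p-HFSC libraries.

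Aldh3a2 oxidises fatty aldehydes, including the one released from sphingosine phosphate. It was at 11.0 and 11.2 FPKM in 10p-HFSCs and at 16.2 and 13.8 FPKM in 48p-HFSCs, so the groups did not overlap, but the log2 difference of 0.40 (SE 0.26, limma adjusted p = 0.295) did not pass the test and turned to -0.13 after rescaling to TPM. Aldh3b1, a membrane-bound enzyme for medium- and long-chain aldehydes, was the second highest of the 10 genes in every library, at 14.6 and 17.1 FPKM in 10p-HFSCs and at 19.3 and 15.5 FPKM in 48p-HFSCs. Its groups overlapped (log2 difference 0.12, SE 0.26, limma adjusted p = 0.765), and its direction changed with the scaling. Of its windows 7 of 1945 occurred in Aldh3b3. Aldh3a1, a corneal crystallin neighbouring Aldh3a2 on chromosome 11, did not pass 0.169 FPKM in any library.

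Of 13 genes of fatty aldehyde and sphingolipid metabolism 7 were tested, with a median log2 difference of 0.08. Of these, 1 was called higher and 1 lower, against 10.8% and 9.15% of all genes tested. Cers3, the ceramide synthase for the very long acyl chains of the epidermal barrier, was at 0.305 and 0.246 FPKM in 10p-HFSCs and rose to 29.7 and 18.99 FPKM in 48p-HFSCs (log2 difference 4.28, SE 0.32, limma adjusted p = 0.00110), and was not called without replicate 1 or 2 of 10p-HFSCs (adjusted p = 0.0596 and 0.0585). Acsl4, which activates arachidonic and related fatty acids, was at 76.6 and 58.4 FPKM in 10p-HFSCs and at 32.7 and 28.8 FPKM in 48p-HFSCs (log2 difference -1.10, SE 0.27, limma adjusted p = 0.0383). It was not called without replicate 1 or 2 of 10p-HFSCs (adjusted p = 0.412 and 0.242) or replicate 2 of 48p-HFSCs (0.0841), without filter (0.0550), or with a correction for length and GC content, where the difference was -0.87.

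Aldh2, the mitochondrial enzyme that clears acetaldehyde, was at 0.0531 FPKM in replicate 1 of 10p-HFSCs and listed at 0 in the other 3 libraries.

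Among the other 11 aldehyde dehydrogenases 6 were tested. None was called higher and 1 was called lower, against 10.8% and 9.15% of all genes tested. Aldh9a1, which serves carnitine synthesis, was at 14.4 and 15.1 FPKM in 10p-HFSCs and listed at 0 in both 48p-HFSC libraries (limma adjusted p = 0.000916). It was called lower under all 15 alternative settings, of which dropping the fold limit could not lose the call. No run of 1 read length of its annotated transcripts occurred in another gene. Aldh9a1 thus shows the opposite pattern to Aldh1a7, for which the 10p-HFSC libraries were the ones listed at 0.

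Aldh3b2, a close relative of Aldh3b1, was at 5.07 and 4.81 FPKM in 10p-HFSCs and at 21.9 and 7.64 FPKM in 48p-HFSCs (log2 difference 1.24, SE 0.48, limma adjusted p = 0.122). Its 48p-HFSC replicates differed by a factor of 2.86, without replicate 2 of 48p-HFSCs it was called higher (1.95, adjusted p = 0.0199), and 13.9% of its windows occurred in Aldh3b3, so its values are uncertain. Aldh4a1, which oxidises the pyrroline-5-carboxylate of proline breakdown, was at 1.77 and 2.08 FPKM in 10p-HFSCs and at 5.13 and 2.76 FPKM in 48p-HFSCs (log2 difference 0.72, limma adjusted p = 0.170). Without replicate 2 of 48p-HFSCs it was called higher (1.07, adjusted p = 0.0411), and 27.4% of its windows occurred in the overlapping gene Gm21969. Aldh6a1, of valine breakdown, was at 1.92 and 1.37 FPKM in 10p-HFSCs and at 4.06 and 2.47 FPKM in 48p-HFSCs (log2 difference 0.67, limma adjusted p = 0.168). Aldh16a1 was at 15.03 and 13.7 FPKM in 10p-HFSCs and at 9.03 and 11.1 FPKM in 48p-HFSCs (log2 difference -0.48, limma adjusted p = 0.241). Aldh1b1 and Aldh5a1 were listed at 0 in every library, and Aldh3b3 and Aldh8a1 did not pass 0.0719 FPKM.

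In the order of levels in 10p-HFSCs, Aldh18a1 was followed by Aldh3b1, Aldh3a2 and Aldh1l2, with no overlap between neighbours. Below these, Aldh7a1, Aldh1a3 and Aldh1a1 overlapped each other, with Aldh7a1 above Aldh1a1 within each library. In 48p-HFSCs Aldh18a1 again came first without overlap. Across the libraries of this group, Aldh3b1 overlapped Aldh3a2, Aldh3a2 overlapped Aldh1a1 and Aldh1a1 overlapped Aldh1a7 in turn. Within each library, however, Aldh3b1 was above Aldh3a2 and Aldh1a1 above Aldh1a7. Aldh3a2 was above Aldh1a1 in replicate 1 and slightly below it in replicate 2. Aldh3b1 lay wholly above Aldh1a1 and Aldh1a7, and Aldh3a2 wholly above Aldh1a7. Aldh1l2 and Aldh7a1 followed and overlapped each other.

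The summed FPKM of all 21 aldehyde dehydrogenase genes was 106 and 105 in 10p-HFSCs against 156 and 143 in 48p-HFSCs. As a share of the summed FPKM of all genes it was 0.0182% and 0.0146% in 10p-HFSCs against 0.0234% and 0.0101% in 48p-HFSCs, so on that scale the groups overlapped. Aldh18a1 made up 30.6% and 30.3% of the family's sum in 10p-HFSCs against 32.8% and 38.0% in 48p-HFSCs, while Aldh9a1 went from 13.5% and 14.4% to being listed at 0.

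**Figure D3:**
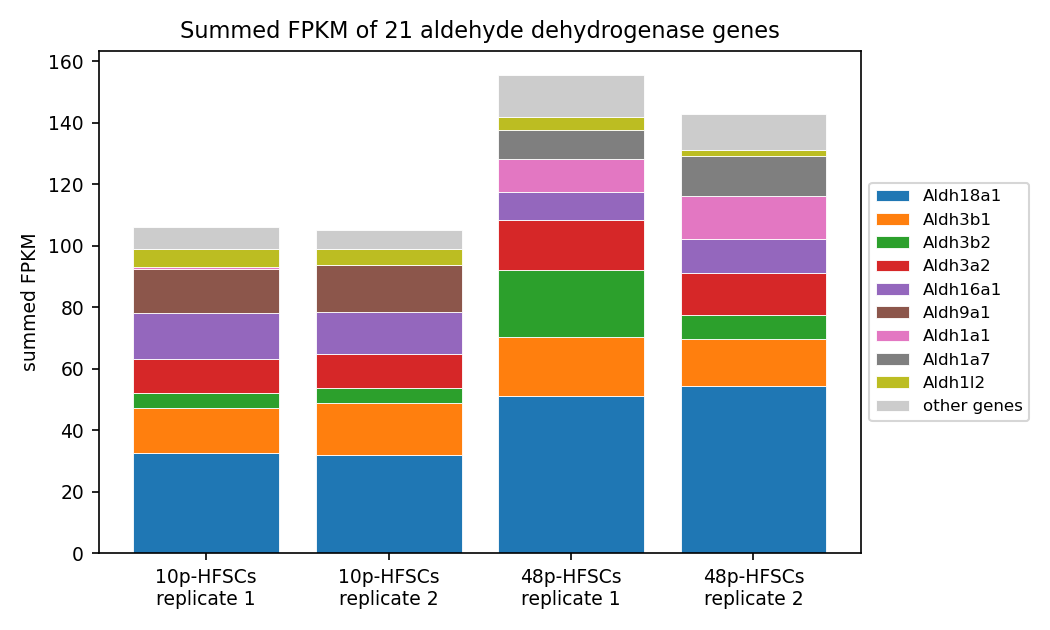
Summed FPKM of the 21 aldehyde dehydrogenase genes in each library, stacked by gene, with the other 12 genes joined. The 48p-HFSC bars reach 156 and 143 against 106 and 105, Aldh9a1 is missing from them, and Aldh1a1 and Aldh1a7 take up a visible part.

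Of the 61 tested genes of the related lists, other aldehyde dehydrogenases included, 8 were called higher and 7 lower. Over all genes tested, the shares were 10.8% and 9.15%, so these counts are not read as a result about the lists.

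**Figure D4:**
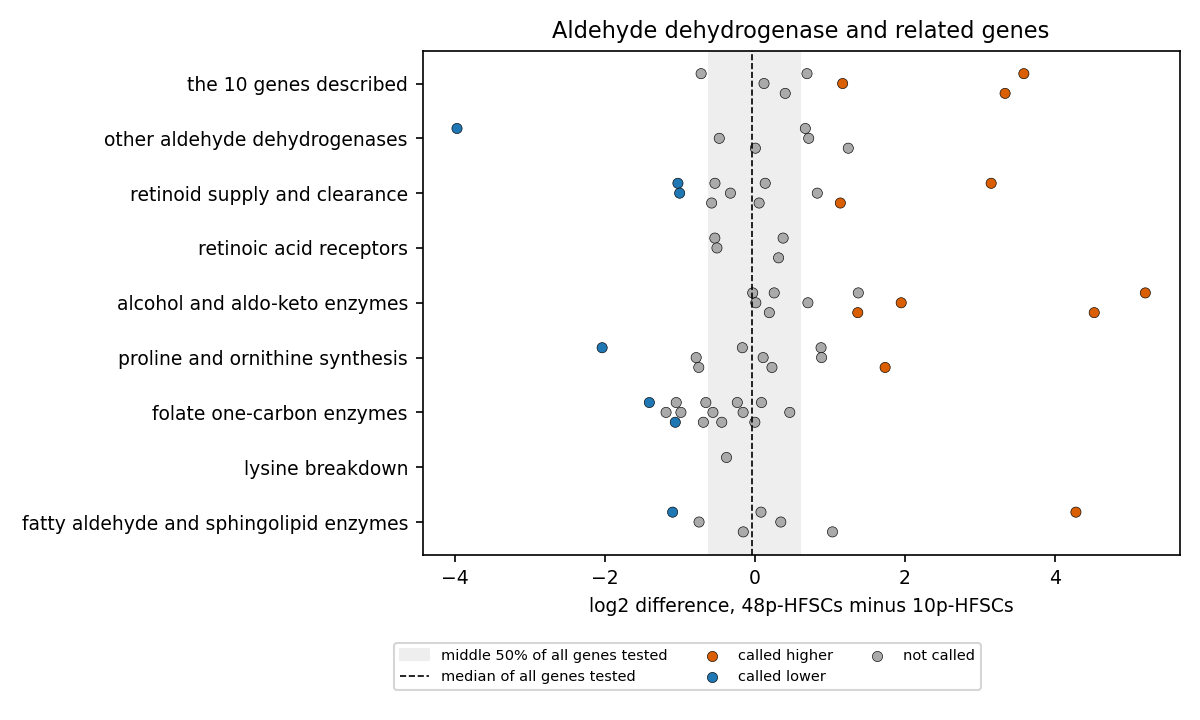
Log2 difference (48p-HFSCs minus 10p-HFSCs, log2(FPKM + 1) scale) of each tested gene, by list, in orange where called higher, blue where called lower and grey where not called. The dashed line is the median of all genes tested (-0.03) and the grey band their middle 50%, and the called genes lie on both sides of it in 3 lists.

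**Figure D5:**
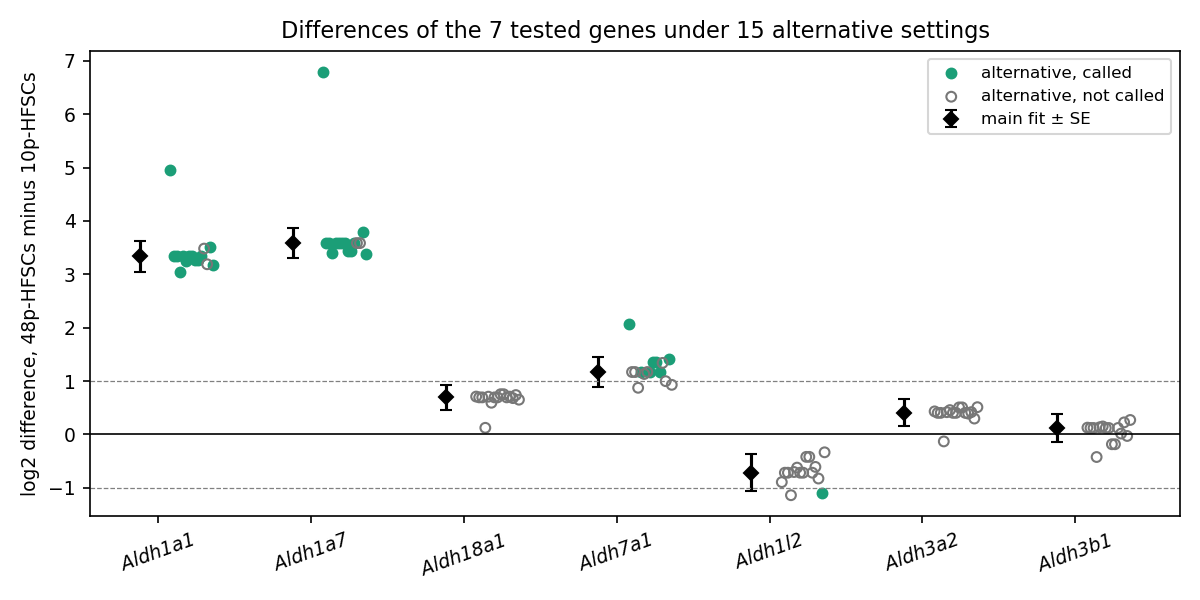
Log2 difference (48p-HFSCs minus 10p-HFSCs) of the 7 tested genes in the limma fit described (black, with its SE) and under 15 alternative settings (green where called, open where not), with dashed lines at the fold limits. Aldh1a1 and Aldh1a7 stay above 3 throughout, while Aldh3a2 and Aldh3b1 lie on both sides of 0.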

How the data were processed

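RNA of 10p- and 48p-HFSCs (2 libraries each, TruSeq stranded mRNA kit, single-end reads of 101 bases) was mapped by the authors to mm10. The submitters' processing notes name TopHat2 2.1.1, Bowtie2 2.2.8, SAMtools 0.1.18 and Cuffdiff 2.2.1. The paper's methods give other versions of Bowtie2 and SAMtools and name Cufflinks, so the sources differ on these tools. The deposited values are FPKM per gene symbol. Annotation, strand setting and handling of multi-mapping reads are not given in the sources used here. Read totals are unknown, so relative depth was read from the most common ratio of low FPKM values, and no counting interval is given.

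Libraries were grouped by their labels. FPKM values were compared on log2(FPKM + 1) with limma 3.58.1 (lmFit, eBayes with trend) in R 4.3.3, without further scaling and without a replicate block, for the 11018 genes reaching an FPKM of 1 in 2 or more libraries, with Benjamini-Hochberg adjustment over all of them. The fit was tested on simulated data. The exact permutation test was not used, since 2 libraries against 2 cannot pass 0.05. Alternatives were another pseudocount (0.1), other filters and scalings, a constant variance prior, no fold limit, a replicate block, a length and GC correction, and leaving out each library.

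Named were all 10 genes, every other aldehyde dehydrogenase, at most 4 called genes of each related list, and for a list without calls the 2 most abundant. Neighbouring and overlapping genes were added after values were seen. The genes and lists were chosen with earlier results of these data known. Sequences came from RefSeq (GRCm38.p6) and GENCODE M21, and were compared with Biopython 1.88.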

Additional observations from a re-analysis of the deposited data

How the results depend on the processing

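Of 105 alternative values of the 7 tested genes 87 kept their direction and their side of the threshold. Another 12 lost the call, 1 gained it and 5 reversed. The other filters, the constant variance prior, the replicate block alone and dropping the fold limit leave the log2 difference unchanged. The direction under those settings was fixed in advance, and dropping the fold limit could not lose a call. Aldh1a1 and Aldh1a7 were called under 13 of 15 alternatives each, with log2 differences of 3.04 to 4.95 and 3.37 to 6.79. The reversals were Aldh3a2 after rescaling to TPM (-0.13) and Aldh3b1 after rescaling to TPM (-0.42), with the length and GC correction with or without the replicate block (-0.18 each) and without replicate 1 of 48p-HFSCs (-0.030, up to 0.27 when other libraries were left out). Outside the 10 genes, Aldh1l1 reversed with a pseudocount of 0.1 (-0.030), after rescaling to TPM (-0.43), without replicate 2 of 10p-HFSCs (-0.07) and without replicate 2 of 48p-HFSCs (-0.42, up to 0.43 without replicate 1), and Rarg after rescaling to TPM (-0.19). The cause was not tested.

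When each library was left out in turn, the number of the 10 genes called higher ranged from 0 to 3 and that called lower from 0 to 1. The 3 calls were lost without replicate 1 or without replicate 2 of 10p-HFSCs, where one group holds 1 library that is assumed to vary like the other group, and the call lower was Aldh1l2 without replicate 1 of 48p-HFSCs. Among related genes 8 were called higher, with 5 without filter, 5 after rescaling to TPM and 2 to 10 when libraries were left out, and 7 were called lower, with 2 without filter, 4 with a constant variance prior and 1 to 6 when libraries were left out. Over all genes, calls fell from 1189 higher and 1008 lower to 35 and 140 without replicate 1 and to 36 and 146 without replicate 2 of 10p-HFSCs, and rose to 1936 and 1875 without replicate 1 of 48p-HFSCs, while calls without filter were 816 and 637 among 16679 genes.

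Groups share replicate numbers, but the labels do not say that a number marks a shared batch, and only 2 pairs exist. The deviations from the group mean correlated at 0.408 between libraries of the same number, across 11018 genes, which are not independent replicates. With the replicate block 1613 genes were called higher and 1497 lower, the 3 calls among the 10 genes were made as well (limma adjusted p = 3.20e-06 for Aldh1a1, 1.57e-06 for Aldh1a7 and 0.0122 for Aldh7a1), and Aldh3b2 was called higher (adjusted p = 0.0110), but not with the block and the length and GC correction together (1.01, adjusted p = 0.0544). The block leaves little spread within a gene, so these p-values rest largely on the variance pooled over genes. For Aldh1a1 the SE was 0.31 with the block against 0.28 without it, although its adjusted p was lower. Among related genes the block called 11 higher and 9 lower.

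Depth is lowest in replicate 2 of 48p-HFSCs, and values under about 1 FPKM, such as those of Aldh1a3, are the least certain. A missing call does not show equal levels.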
